A study of Chromochloris zofingiensis with 12 samples.

Results

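Carotene isomerases change cis bonds in intermediates of the carotenoid pathway to trans, which gives the forms that the next enzymes accept. The genes described are ZISO (Cz10g17130), CRTISO1 (Cz12g03260) and CRTISO2 (Cz14g22040), taken by gene ID from the list of carotenogenic genes that the study provides. They are 3 of the 15274 gene rows of the expression table, and all 3 were among the 14916 genes tested. Another gene of that list, CRTISO (Cz16g01210), is given beside them because it carries the same enzyme name.

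Wild-type cells of the unicellular green alga *Chromochloris zofingiensis* CCAP 211/14 were grown as chemostats diluted 0.5 times per day, under a cycle of 12 h light and 12 h dark, and taken 4 h into the light period. The feed held 10 or 1 mM nitrate, and the maximum irradiance on the reactor surface was 300 µE m−2 s−1 (low light, LL) or 1000 µE m−2 s−1 (high light, HL). Each pairing of light and nitrate is a condition with 3 libraries, 12 in all, and LL 10 mM is the unstressed control of the study. Samples came from 3 consecutive days, and the sources do not tie libraries to days or to separate reactors, so the p-values reflect the spread between these libraries alone, which may be technical.

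In plants and cyanobacteria, phytoene desaturase (PDS) leaves ζ-carotene with a cis bond in its middle. ZISO, the ζ-carotene isomerase, straightens that central bond and so makes the substrate of ζ-carotene desaturase (ZDS). ZDS yields a lycopene that still carries several cis bonds, and CRTISO, the carotenoid isomerase, converts it to all-trans lycopene, from which the α- and β-carotene branches start. Loss of CRTISO gives the orange fruit of the tangerine tomato, and light can replace part of the activity of these enzymes in plant mutants. The names CRTISO1 and CRTISO2 are those of the study, and enzyme activity was not measured in these data.

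Levels are FPKM (fragments scaled to the length of the transcript and library size), and the unit was inferred from the values. FPKM is a share of each library's fragments, so it does not show a change in total mRNA per cell, and the table carries no read counts, so the depth behind a value is unknown. "Deposited" levels are the table's own values. "Normalized" levels were quantile-normalized, which gives every library the same distribution of values, and all fold changes and tests use them on the log2(FPKM + 1) scale unless stated. Calls are those of limma with p-values adjusted by Benjamini-Hochberg across all 14916 genes and a limit of 0.05, and the 2-fold mark that the study adds is named where it matters. The comparisons against LL 10 mM share its libraries.

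Of the 3 isomerase genes, CRTISO2 stood apart in size: it rose in every comparison of a stress condition with the control, while ZISO and CRTISO1 moved by less than 2-fold. In HL 10 mM against LL 10 mM, 3 of 3 were higher, where 5.81% of all genes were. In LL 1 mM against LL 10 mM, CRTISO2 was higher and the other 2 were lower, beside 21.3% and 25.2% of all genes. In HL 1 mM against LL 10 mM, CRTISO2 and CRTISO1 were higher, beside 25.0% of all genes, and ZISO did not pass the test. Within the low-nitrate cultures, higher light (HL 1 mM against LL 1 mM) raised CRTISO2 and CRTISO1, where 2.82% of all genes were called higher. Within the high-light cultures, lower nitrate (HL 1 mM against HL 10 mM) left CRTISO2 higher and the other 2 lower, beside 24.7% and 33.2% of all genes. LL 1 mM lay below HL 10 mM for 3 of 3, beside 29.9% of all genes.

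**Figure D1:**
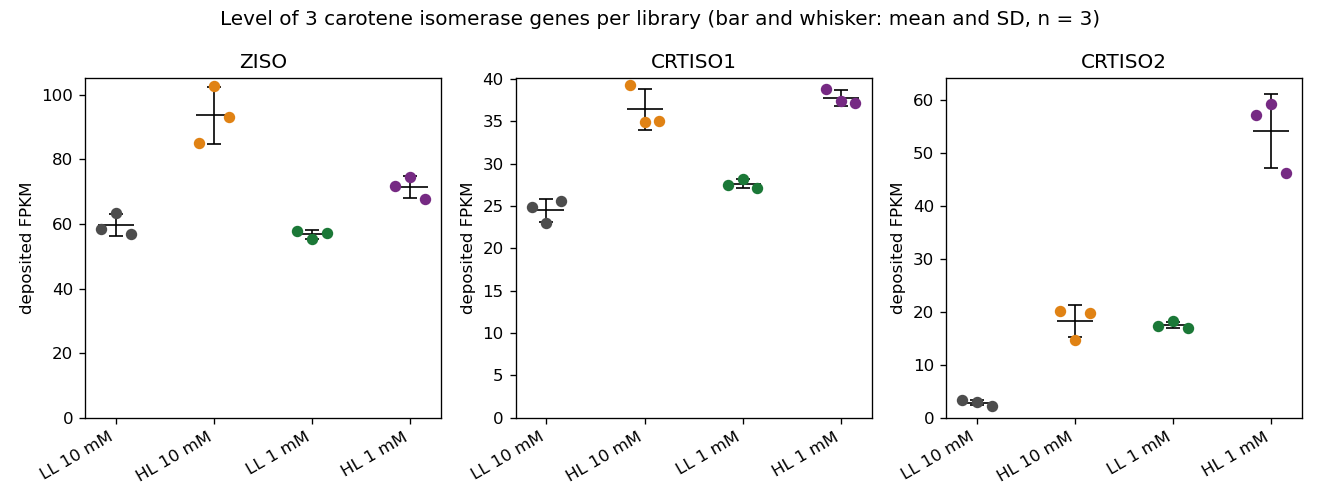
Deposited FPKM of ZISO, CRTISO1 and CRTISO2 in each of the 12 libraries, by condition, on linear axes from 0. Points are libraries, bars and whiskers are means and SD over 3 libraries. CRTISO2 runs from 2.29 FPKM in LL 10 mM to 59.2 FPKM in HL 1 mM, while ZISO spans 55.3 to 103 FPKM and CRTISO1 23.0 to 39.3 FPKM.

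ZISO, the isomerase that acts between the desaturases, was the most abundant of the 3 genes and was highest in high light with ample nitrate. Its deposited FPKM were 58.3, 63.4 and 57.0 in LL 10 mM and 84.9, 103 and 93.2 in HL 10 mM. They were 57.7, 55.3 and 57.2 in LL 1 mM and 71.8, 74.4 and 67.8 in HL 1 mM. The 3 HL 10 mM libraries lay above all 9 others, and on the deposited values LL 1 mM overlapped LL 10 mM. Such statements on libraries lying apart, here and below, only describe the printed values. The share of all genes that separate likewise is not given.

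After normalization ZISO stood at 68.4 ± 4.41 under LL and 94.0 ± 9.86 under HL at 10 mM nitrate, and 53.5 ± 0.923 under LL and 64.1 ± 2.95 under HL at 1 mM (FPKM, SD, n = 3). High light at 10 mM raised it, and the log2 difference was 0.45 ± 0.08 (standard error, limma adjusted p = 0.00563). Low nitrate lowered it under LL, where the difference was −0.35 ± 0.08 (adjusted p = 0.00554), and under HL, where it was −0.54 ± 0.08 (adjusted p = 0.000242). At 1 mM nitrate the step from LL to HL was 0.26 on the log2 scale with a 95% interval of 0.07 to 0.44, and it did not pass limma's test (adjusted p = 0.104). HL 1 mM and LL 10 mM, neighbours in the order of levels, differed by −0.09 (95% interval −0.27 to 0.09, adjusted p = 0.368 by limma). On the values as deposited, the ZISO difference in LL 1 mM against the control was −0.07 (limma adjusted p = 0.485). There HL 1 mM lay above the control by 0.26 (adjusted p = 0.0139) and above LL 1 mM by 0.33 (adjusted p = 0.0412). After scaling to the same median, HL 1 mM was instead called lower than the control, at −0.30 (limma adjusted p = 0.0275). The position of ZISO in HL 1 mM against the control thus turned with the scaling.

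CRTISO1 followed light with little spread between libraries, and its position against nitrate rested on the scaling. The deposited FPKM were 24.8, 23.0 and 25.6 in LL 10 mM and 39.3, 35.0 and 35.0 in HL 10 mM. They were 27.4, 28.2 and 27.2 in LL 1 mM and 38.9, 37.4 and 37.1 in HL 1 mM. Every HL library lay above every LL library, and as deposited LL 1 mM lay above LL 10 mM.

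Normalized CRTISO1 levels were 28.7 ± 1.29 under LL and 38.7 ± 2.91 under HL at 10 mM nitrate, and 25.1 ± 0.987 under LL and 32.6 ± 0.746 under HL at 1 mM (FPKM, SD, n = 3). High light raised CRTISO1 at 10 mM, by 0.42 ± 0.07 (log2 and standard error, limma adjusted p = 0.00304), and at 1 mM, by 0.36 ± 0.07 (adjusted p = 0.0133). The light step at 1 mM lost its call without HL 1 mM replicate 1 (adjusted p = 0.0539), HL 1 mM replicate 2 (0.0526) or LL 1 mM replicate 1 (0.0549). It also missed the limit after scaling to the same median (0.0859). Across both nitrate levels the light effect was 0.39 (standard error 0.05, adjusted p = 0.000304), the 380th highest of the 14916 genes.

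For nitrate, normalized CRTISO1 was lower in HL 1 mM than in HL 10 mM, and the log2 difference was −0.24 ± 0.07 (standard error, limma adjusted p = 0.0109). It also lay lower in LL 1 mM than in LL 10 mM, at −0.19 ± 0.07 (adjusted p = 0.0447), and higher in HL 1 mM than in the control, at 0.18 ± 0.07 (adjusted p = 0.0483). Each of the last 2 calls did not survive in 9 of 12 fits with a library removed (adjusted p up to 0.151 and 0.133). The call in HL 1 mM was also lost once the replicate number entered as a block (adjusted p = 0.053), and that difference was 0.61 as deposited and 0.06 with the same median. As deposited, CRTISO1 stood instead at 0.17 in LL 1 mM against LL 10 mM (adjusted p = 0.0522) and at 0.05 in HL 1 mM against HL 10 mM (adjusted p = 0.504).

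CRTISO2 went from a low-level transcript of unstressed cells to one of the upper range. Its deposited FPKM were 3.26, 3.00 and 2.29 in LL 10 mM, where 24.8% of the genes tested had a lower mean. High light at 10 mM gave 20.1, 14.8 and 19.8, and low nitrate in LL gave 17.4, 18.2 and 17.0. In HL 1 mM the values were 57.1, 59.2 and 46.2, and 80.2% of the genes tested had a lower mean there. The lowest HL 1 mM library lay above every other library, LL 10 mM lay below all others, and the deposited values of HL 10 mM and LL 1 mM overlapped.

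Means of deposited CRTISO2 were 2.85 ± 0.501 under LL and 18.2 ± 2.99 under HL at 10 mM nitrate, and 17.5 ± 0.627 under LL and 54.2 ± 6.98 under HL at 1 mM (FPKM, SD, n = 3). Ratios of these means to LL 10 mM were 6.38 for HL 10 mM, 6.15 for LL 1 mM and 19.0 for HL 1 mM. Ratios of normalized means were already smaller, at 5.16 for HL 10 mM and 3.86 for LL 1 mM, and HL 1 mM stood at 47.9 against 3.99 FPKM. On the normalized log2(FPKM + 1) scale the pseudocount shrinks the fold of a gene this low in the control further. The folds there were 4.35 for HL 10 mM, 3.31 for LL 1 mM and 9.83 for HL 1 mM. All of them passed the 2-fold mark as well as the limma test, which 0.469%, 4.60% and 6.52% of all genes did upwards. By size of the log2 fold change CRTISO2 was the 9th highest of 14916 genes in HL 10 mM, the 216th in LL 1 mM and the 62nd in HL 1 mM.

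Each factor also raised CRTISO2 on top of the other. High light at 1 mM nitrate added 1.57 ± 0.14 (log2 and standard error, limma adjusted p = 0.000107), the 17th highest of all genes in that comparison. Low nitrate in high light added 1.18 (standard error 0.14, limma adjusted p = 5.38e-05). The single stresses, compared directly, differed by −0.39 for LL 1 mM against HL 10 mM (standard error 0.14, adjusted p = 0.0385). That last difference was −0.04 on the deposited values (adjusted p = 0.831), −0.41 with a pseudocount of 0.1 (adjusted p = 0.0625), and its call was gone in 4 of 12 fits with a library removed. Those libraries were HL 10 mM replicate 1 (adjusted p = 0.123), HL 10 mM replicate 3 (0.0891), LL 1 mM replicate 1 (0.0743) and LL 1 mM replicate 3 (0.116).

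**Figure D2:**
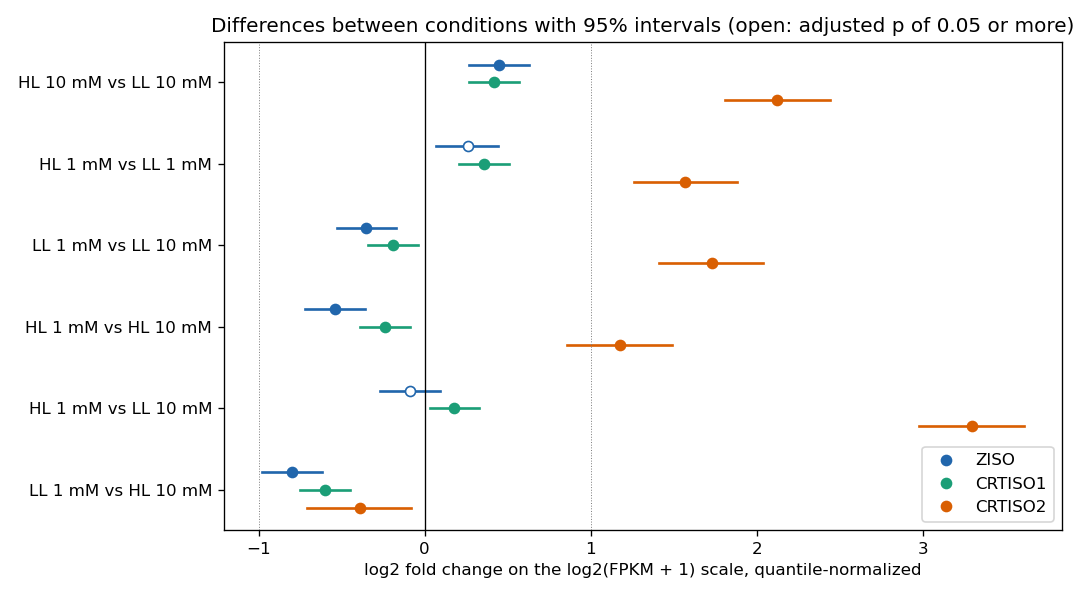
Log2 fold changes of the 3 genes between conditions, on the quantile-normalized log2(FPKM + 1) scale, with 95% intervals from limma. Filled points passed the adjusted p of 0.05, open points did not, and dotted lines mark 2-fold. CRTISO2 lies between 1.18 and 3.30 in 5 comparisons and at −0.39 for LL 1 mM against HL 10 mM, while ZISO and CRTISO1 stay within 2-fold.

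The study asks how nitrate and light act alone and together, so both factors were fitted in one model. For light (HL minus LL, averaged over nitrate), 3 of 3 genes were higher, against 5.31% of all genes, with effects of 0.35 for ZISO, 0.39 for CRTISO1 and 1.85 for CRTISO2 on the log2 scale (standard errors 0.06, 0.05 and 0.10). The effect of CRTISO2 was the 7th highest of 14916. For nitrate (1 mM minus 10 mM), CRTISO2 rose by 1.45 (standard error 0.10, adjusted p = 5.82e-07 by limma), while 27.8% of all genes were called higher. ZISO and CRTISO1 fell by 0.44 and 0.21 on the log2 scale (standard errors 0.06 and 0.05), while 36.7% of all genes were called lower.

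These light effects held under each scaling tried, and the nitrate effects did not all do so. On the values as deposited the light effects were 0.48 for ZISO, 0.50 for CRTISO1 and 1.94 for CRTISO2, and with libraries scaled to the same median they were 0.38, 0.40 and 1.86. The nitrate effect of ZISO was −0.23 as deposited and −0.68 with the same median, and that of CRTISO2 was 1.90 and 1.49. For CRTISO1 it turned to 0.11 as deposited (adjusted p = 0.0715 by limma) and was −0.33 with the same median.

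The normalization matters because the nitrate conditions differed across the whole table. The median log2 difference of all genes for nitrate was 0.32 on the deposited values and −0.06 after quantile normalization, and for light 0.08 and 0.01. The 10 most abundant genes of a library held 13.5% to 18.4% of its summed FPKM at 10 mM and 7.28% to 8.54% at 1 mM. The part of that difference in the nitrate results was not tested.

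**Figure D3:**
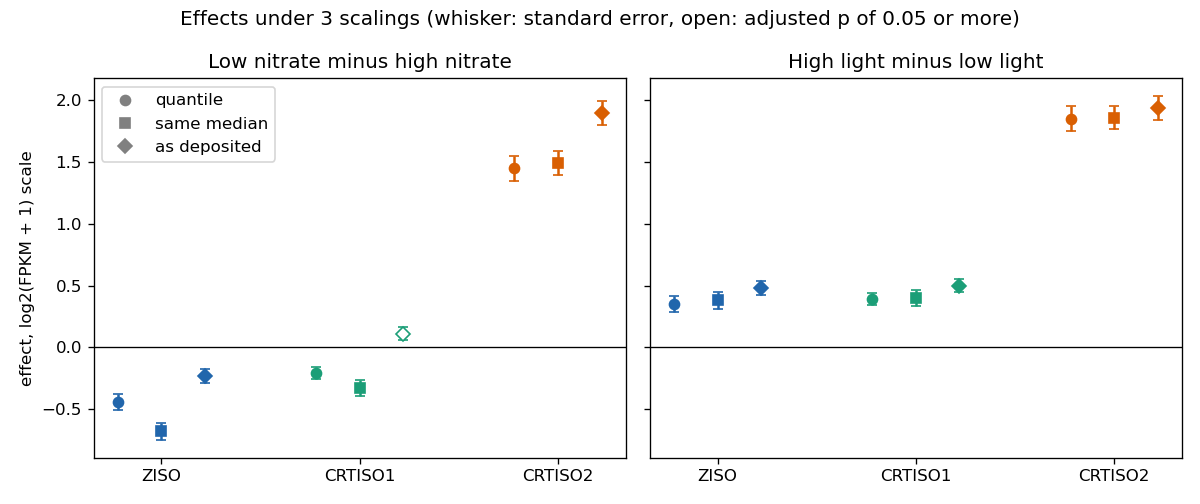
Nitrate effect (left, 1 mM minus 10 mM) and light effect (right, HL minus LL) of the 3 genes on the log2(FPKM + 1) scale under 3 scalings: quantile-normalized, same median and as deposited. Whiskers are standard errors from limma, and open points did not pass the adjusted p of 0.05. The light effects keep their sign, and the nitrate effect of CRTISO1 runs from −0.33 to 0.11.

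Whether the combination exceeded the single stresses depended on the scale for CRTISO2. Its deposited mean of 54.2 FPKM in HL 1 mM was above the 32.9 FPKM that adding the 2 single increases gives, and below the 112 FPKM that multiplying the 2 single folds gives. High light added 15.4 FPKM at 10 mM and 36.7 FPKM at 1 mM, while as a ratio of deposited means it was 6.38 at 10 mM and 3.09 at 1 mM.

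None of the 3 genes passed limma's test of the interaction after adjustment, where 5.48% of all genes did, and 1 of them, CRTISO2, had an unadjusted p under 0.05. The count over all genes moved with single libraries, since the 463 higher and 354 lower genes became 122 to 770 and 80 to 651 when any 1 library was removed, with the fewest without LL 1 mM replicate 2 and the most without LL 1 mM replicate 3, and 801 and 781 with the replicate block. For CRTISO2 the interaction was −0.55 on the log2 scale (standard error 0.20, unadjusted p = 0.0196, adjusted p = 0.13). It passed as deposited, at −0.75 (adjusted p = 0.0429), and with the same median, at −0.88 (adjusted p = 0.0261). Fitted on normalized FPKM without the log, it turned positive, at 15.9 FPKM (adjusted p = 0.0509). ZISO had an interaction of −0.19 (95% interval −0.45 to 0.06) and CRTISO1 of −0.06 (95% interval −0.27 to 0.16).

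**Figure D4:**
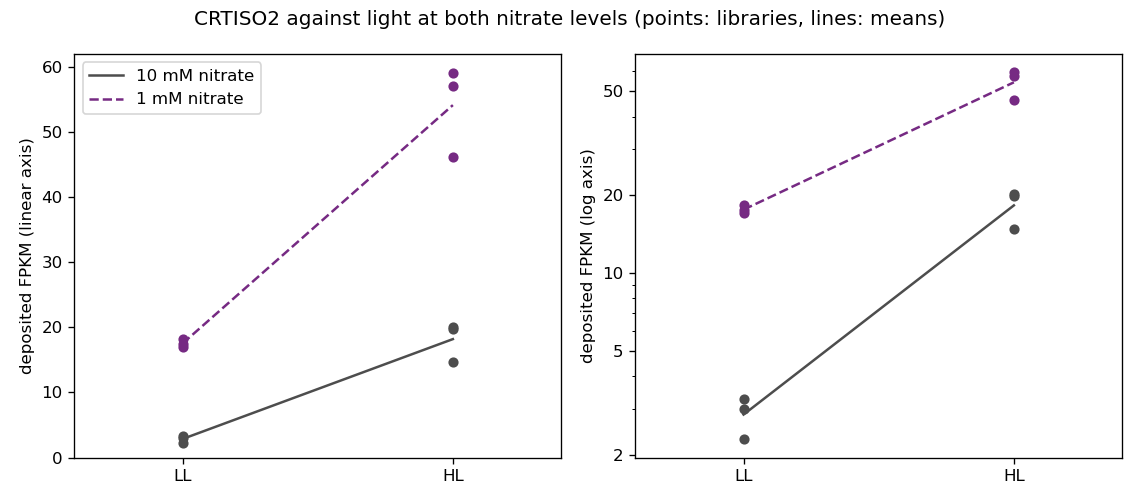
Deposited FPKM of CRTISO2 in LL and HL at 10 mM (solid line) and 1 mM nitrate (dashed line), on a linear axis (left) and a log axis (right). Points are the 12 libraries and lines join means of 3. The 1 mM line is the steeper one on the linear axis, with 36.7 against 15.4 FPKM, and the flatter one on the log axis, with a ratio of 3.09 against 6.38.

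Ratios within a library are nearly free of the scaling between libraries, and they separated the 3 genes by nitrate. The ratio of CRTISO2 to CRTISO1 was 0.117 ± 0.0239 under LL and 0.500 ± 0.0725 under HL at 10 mM nitrate, and 0.635 ± 0.0101 under LL and 1.43 ± 0.172 under HL at 1 mM (deposited FPKM, SD, n = 3). Only in HL 1 mM did CRTISO2 exceed CRTISO1, in 3 of 3 libraries. The ratio rose by 1.79 on the log2 scale with low nitrate (95% interval 1.47 to 2.12) and by 1.44 with high light (1.13 to 1.76).

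Against ZISO, CRTISO2 rose by 2.13 with low nitrate (95% interval 1.82 to 2.44) and by 1.46 with high light (1.15 to 1.77). CRTISO1 also gained on ZISO with low nitrate, by 0.34 (0.15 to 0.53). Each of these 5 shifts had p = 0.005 by a two-sided exact permutation test within the levels of the other factor, the smallest that 400 relabellings can give, and an adjusted p of 0.008 over the 8 ratio tests. That test does not use the replicate number. Under sign flips within replicate numbers each shift had an adjusted p of 0.05, which is not below the limit.

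With light, CRTISO1 and ZISO were not told apart, since their ratio moved by 0.01 (95% interval −0.17 to 0.20, exact permutation p = 0.885). The ratio of ZISO to ZDS, the desaturase that takes the ZISO product, stayed near a single value in the 4 conditions. Its mean was 0.570 ± 0.0274 under LL and 0.562 ± 0.0634 under HL at 10 mM nitrate, and 0.551 ± 0.0306 under LL and 0.578 ± 0.0229 under HL at 1 mM (deposited FPKM, SD, n = 3). No shift of that ratio was detected for nitrate or for light (exact permutation p = 0.995 and 0.78). The 95% interval of the shift was −0.12 to 0.14 on the log2 scale for each, which does not show that the ratio is constant.

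CRTISO, the remaining isomerase-type gene, went the other way from CRTISO2 under low nitrate. Its deposited level was 43.5 ± 1.08 under LL and 50.2 ± 1.65 under HL at 10 mM nitrate, and 36.8 ± 1.70 under LL and 35.3 ± 1.15 under HL at 1 mM (FPKM, SD, n = 3). The nitrate effect was −0.65 on the normalized log2 scale (standard error 0.04, adjusted p = 4.91e-07 by limma). The light effect of −0.05 did not pass the test (95% interval −0.15 to 0.05, adjusted p = 0.574). It averaged light steps of opposite sign, 0.07 at 10 mM and −0.17 at 1 mM nitrate. Neither step passed (adjusted p = 0.543 and 0.156 by limma).

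In the summed FPKM of CRTISO, CRTISO1 and CRTISO2, the share of CRTISO2 was 4.04% ± 0.770 under LL and 17.3% ± 2.01 under HL at 10 mM nitrate, and 21.4% ± 0.671 under LL and 42.4% ± 2.77 under HL at 1 mM (SD, n = 3). The share of CRTISO went from 61.4% ± 1.25 to 27.8% ± 1.07 between LL 10 mM and HL 1 mM, and that of CRTISO1 from 34.5% ± 1.30 to 29.8% ± 1.71. CRTISO2 was thus the least abundant of these genes in all 9 libraries of the other conditions and the most abundant in the 3 libraries of HL 1 mM. The summed deposited level was 70.8 ± 1.49 FPKM under LL and 105 ± 5.65 FPKM under HL at 10 mM nitrate. At 1 mM it was 81.9 ± 1.86 and 127 ± 8.59 FPKM. That rise with low nitrate rested on the scaling. Under LL, low nitrate took mean normalized CRTISO from 49.8 to 34.1 FPKM and CRTISO1 from 28.7 to 25.1 FPKM. CRTISO2 gained less than these genes lost together, going from 3.99 to 15.4 FPKM. Under HL the changes nearly offset each other. They were 52.2 to 30.2 FPKM for CRTISO, 38.7 to 32.6 for CRTISO1 and 20.6 to 47.9 for CRTISO2.

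**Figure D5:**
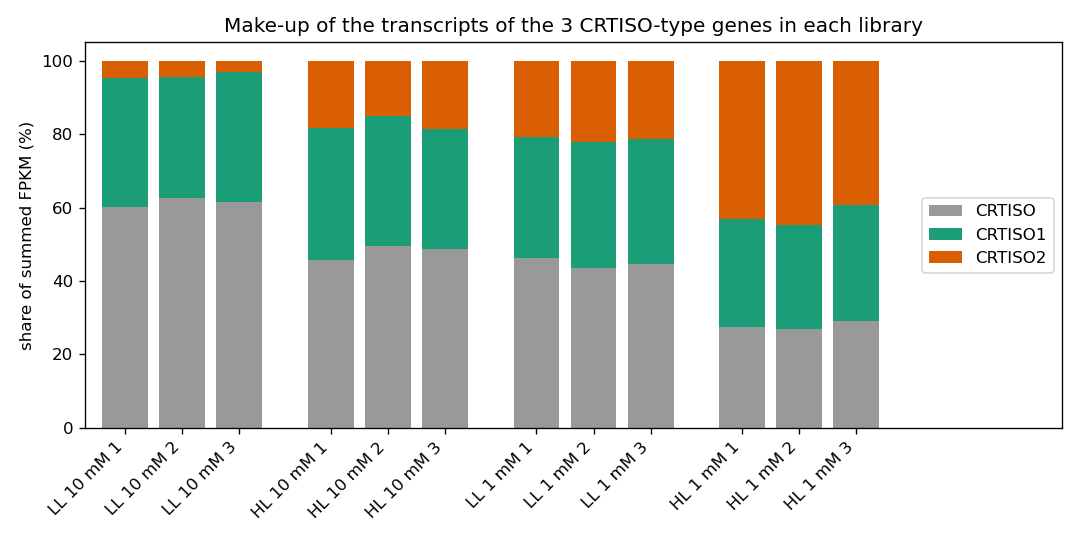
Share of CRTISO (grey), CRTISO1 (green) and CRTISO2 (orange) in the summed deposited FPKM of these genes, in percent, for each of the 12 libraries. CRTISO2 takes 3.16% to 4.63% in LL 10 mM and 39.4% to 44.7% in HL 1 mM, and the share of CRTISO shrinks from 60.1% or more to 29.0% or less.

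The other 7 genes of the list upstream of lycopene encode phytoene synthase (PSY), which makes the first carotene, the desaturases PDS and ZDS, and CRTISO. For light, 2 of the 7 were higher, ZDS by 0.35 and PDS Cz08g09110 by 0.60 on the log2 scale (adjusted p = 0.000612 and 0.00216 by limma), and the other 5 did not pass the test, where 5.31% of all genes were called higher. For nitrate, 5 of the 7 were lower, beside 36.7% of all genes, and both PSY genes did not pass. The median effect of the 7 was 0.07 for light and −0.40 for nitrate, beside 0.01 and −0.06 over all genes tested.

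Of the 15 genes of the list that act on lycopene or after it, 4 were higher and 4 lower for light, beside 5.31% and 4.45% of all genes. For nitrate, 5 of the 15 were higher and 8 lower, beside 27.8% and 36.7% of all genes. The 5 higher ones were 1 of 4 cyclases, 1 of 4 hydroxylases, 1 of 2 ketolases and 2 of 5 genes of the epoxide cycle and neoxanthin synthesis. CRTISO2 was the 1 gene of 10 upstream of lycopene that was called higher for nitrate, where 27.8% of all genes were. The study published this list with p-values from the same libraries, so these counts are a description.

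Across the 12 libraries, the pattern of ZISO was most like that of ZDS among the 25 genes of the list. Pearson's r of their normalized log2(FPKM + 1) was 0.96, the 13th highest of 14914 other genes, followed by PDS Cz08g09110 with 0.91 and PDS Cz02g32280 with 0.90. CRTISO1 was most like PDS Cz08g09110 (r = 0.92, the 32nd highest), ZDS (0.90) and CRUP Cz07g07080 (0.85), a gene the study places with the β-cyclases. CRTISO2 was most like BKT1 Cz13g13100 (r = 0.84, the 301st highest), the β-carotene ketolase, then LCYb Cz12g10170 (0.79), the lycopene β-cyclase, and the violaxanthin de-epoxidase gene VDE Cz06g01120 (0.78). The other VDE gene of the list, Cz06g02070, was instead lower for nitrate, at −0.69 on the log2 scale (adjusted p = 2.29e-07 by limma).

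Among the members themselves, r was 0.83 for ZISO and CRTISO1, 0.38 for CRTISO1 and CRTISO2 and 0.02 for ZISO and CRTISO2. The libraries of a condition share that condition, so these values describe the 4 conditions as much as the 12 libraries. The spread within conditions was 0.069 on the log2 scale for CRTISO1, 0.094 for ZISO and 0.189 for CRTISO2, beside a median of 0.133 over all genes tested.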

How the data were processed

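Stranded mRNA libraries were quantified by the authors with the MARACAS pipeline (FastQC, HISAT2 mapping to the published *C. zofingiensis* genome and StringTie). The FPKM values were used as deposited by the authors, before the quantile normalization that the methods describe, and the unit was inferred from the values. They carry no counts, so precision is judged from the spread of 3 libraries. With R 4.3.3 and limma 3.58.1, 358 genes with no value above 0 were dropped, a pseudocount of 1 was added, and log2 values were quantile-normalized. All 4 conditions were fitted together. Nitrate and light effects came from a model without the interaction for genes whose interaction missed the 0.05 limit before adjustment. With 3 libraries against 3, an exact permutation test cannot go below p = 0.1, so single comparisons rest on limma's pooled variance (prior degrees of freedom 2.63). Ratios within libraries were tested by exact permutation, with 95% intervals from inverting that test. The genes named were the 3 members, CRTISO, ZDS, the pathway genes with the 3 highest r for each member, and for CRTISO2 the gene with the highest r of all. PDS Cz08g09110 is also named as 1 of 2 other upstream genes called for light. ZEP and VDE Cz06g02070 were named after their values were seen. The members and lists were chosen with earlier results of these data known. On simulated data with 14916 genes for HL 1 mM against LL 10 mM, 97% of 100 genes changed 2-fold and 100% of 100 changed 4-fold were found, with 12 false calls. The simulation gave every condition the LL 10 mM means with independent noise and no shift across the table. The genes changed in it did not include levels as low as that of CRTISO2 in LL 10 mM. It therefore does not speak to the scaling between conditions or to a gene that low. The alternatives were a pseudocount of 0.1, a minimum mean FPKM of 1, a trended and robust prior, scaling to a common median, no normalization, a replicate block, leaving out each library, fits with the 6 libraries compared, the interaction kept, and a linear scale.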

Additional observations from a re-analysis of the deposited data

How the results depend on the processing

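CRTISO2's rises against LL 10 mM, its rises with each factor at either level of the other, and its nitrate and light effects kept their direction and their call under each alternative run. As deposited, the log2 difference of ZISO was −0.07 in LL 1 mM and 0.26 in HL 1 mM against LL 10 mM and 0.33 in HL 1 mM against LL 1 mM. That of CRTISO1 was 0.17 in LL 1 mM against LL 10 mM, 0.05 in HL 1 mM against HL 10 mM and 0.11 for nitrate, and that of CRTISO2 was −0.04 in LL 1 mM against HL 10 mM and −0.75 for the interaction. With the same median, ZISO stood at −0.30 in HL 1 mM against LL 10 mM and CRTISO1 at 0.06 there. CRTISO1 was at 0.30 in HL 1 mM against LL 1 mM, and the CRTISO2 interaction at −0.88. The ZISO difference in LL 1 mM against HL 10 mM was −0.80 after quantile normalization. With the same median it was −1.06 (adjusted p = 1.16e-05 by limma), past the 2-fold mark. With the 6 libraries compared, CRTISO1 was at −0.18 in LL 1 mM (adjusted p = 0.085) and 0.17 in HL 1 mM (0.0628) against LL 10 mM. With a pseudocount of 0.1, CRTISO2 in LL 1 mM against HL 10 mM was −0.41. The CRTISO2 interaction on the linear scale was 15.88 FPKM. The cause of these changes was not tested.

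Leaving out 1 library, CRTISO1 ranged from −0.22 to −0.15 in LL 1 mM and from 0.16 to 0.21 in HL 1 mM against LL 10 mM, and from 0.34 to 0.39 in HL 1 mM against LL 1 mM. CRTISO2 in LL 1 mM against HL 10 mM ranged from −0.48 to −0.31. The log2 ratio of CRTISO1 to ZISO for light ranged from −0.05 to 0.06, and that of ZISO to ZDS from −0.02 to 0.06. No other call of the 3 genes changed when a library was left out.

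Libraries with the same replicate number tended to deviate together, though not in every pair. Of 18 such pairs, 11 had a correlation over 0.1 (range −0.06 to 0.44), and 8 of 12 libraries correlated best with their own number. Pairs with different numbers ranged from −0.42 to 0.35. With the replicate block, CRTISO1 in HL 1 mM against LL 10 mM was 0.18 (adjusted p = 0.053). Under sign flips within replicate numbers, the 5 ratio shifts of 1.79, 1.44, 0.34, 2.13 and 1.46 each had an adjusted p of 0.05. That is the smallest that this replicate block allows for them, and it is not below the 0.05 limit, so their calls were lost. The block changed no other call of the 3 genes.

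Counts over all genes also moved. As deposited, 9185 genes were called higher and 1486 lower for nitrate, against 4144 and 5475 after it, and 2105 and 395 for light, against 792 and 664. For HL 1 mM against LL 1 mM the 421 higher and 360 lower genes became 176 to 726 and 134 to 610 when 1 library was left out. For HL 10 mM against LL 10 mM the 866 and 846 genes fell to 537 and 544 without HL 10 mM replicate 1.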

Other observations

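Of all genes tested, Cz14g04020, given by its ID alone, had the pattern most like that of CRTISO2, with Pearson's r of 0.992 over the 12 libraries. Its deposited level was 32.8 ± 7.06 under LL and 174 ± 38.7 under HL at 10 mM nitrate, and 150 ± 6.36 under LL and 412 ± 101 under HL at 1 mM (FPKM, SD, n = 3), and 118 genes had an r over 0.9 with CRTISO2.

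ZEP (Cz07g30060), the zeaxanthin epoxidase, was singled out after its values were seen. It had the lowest r with CRTISO2 of the list, −0.95, the 14884th of 14914 genes. Its deposited level was 99.2 ± 3.86 under LL and 61.2 ± 6.94 under HL at 10 mM nitrate, and 69.5 ± 4.54 under LL and 60.3 ± 2.71 under HL at 1 mM (FPKM, SD, n = 3). ZEP fell in each stress condition against LL 10 mM, with log2 fold changes of −0.83, −0.76 and −1.04 (adjusted p = 0.000123, 3.51e-05 and 2.05e-06 by limma). From the single stresses to HL 1 mM, where CRTISO2 rose further, the steps of ZEP were small. They were −0.22 from HL 10 mM (limma adjusted p = 0.0359) and −0.29 from LL 1 mM (0.0654, not called). The interaction of ZEP was 0.54 (limma adjusted p = 0.0267).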
